A study of Mus musculus with 14 samples.

Results

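The mouse mammary gland was compared between 4 and 5 weeks of age, on the 3 arrays of 4wk (A, B and C) and the 2 arrays of 5wk (A and B) of a series of 14 Affymetrix expression arrays that runs from 3wk to 7wk. All 20380 probe sets that name 1 gene, of 22690 on the array, entered the comparison. They stand for 12393 genes, and 16938 of these probe sets (10699 genes) passed the filter on low signal, while 3442 did not. Every array of both ages carried biotin-labelled RNA of whole number 4 inguinal glands, freed of their lymph nodes, from untreated female mice of the outbred CD1 strain, pooled over at least 3 animals. The 4wk and 5wk groups therefore differed in age alone, per the labels. The labels do not state whether pools shared mice, so the spread between arrays is the spread between pools and may be in part technical.

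At puberty the ducts of the mammary gland grow out from a small epithelial tree into a pad of fat. The tips of the growing ducts, the terminal end buds, respond to oestrogen, growth hormone and insulin-like growth factor, and the ducts are built of an inner luminal and an outer basal layer. In young mice the fat pad also holds fat cells with the features of brown fat, which burn fatty acids in mitochondria to make heat. The gland was taken whole, so that fewer cells of a type and less RNA per cell cannot be told apart in these values.

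Each value is a ratio, in which the median of the same probe set across all 14 arrays stands for 1, so levels cannot be compared between genes. Differences are given as 5wk minus 4wk on the log2 scale with the standard error (SE) of the limma fit, in which 1 unit is a doubling, and a probe set or gene is said to rise or fall where its adjusted p was under 0.05. Of the 16938 probe sets, 128 passed (0.756%), 54 of them higher and 74 lower at 5wk, from 121 genes. At an unadjusted p under 0.05 there were 2533. The arrays of the 2 ages did not overlap for 33.5% of all probe sets, called or not. They did not overlap for any of the 128, so a lack of overlap adds nothing to a call. The count of 128 depended on single arrays: it was 45, 12 and 57 without 4wk A, B and C, 70 and 50 without 5wk A and B, 77 without 3wk C, and 69, 62 and 67 without 7wk A, B and C.

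The largest rises were those of milk protein genes, of a MYC family transcription factor and of a carrier of retinoic acid. Csn1s2a, which encodes a casein of milk, had ratios of 0.0195, 0.0351 and 0.0654 on arrays A, B and C of 4wk, against 1.71 and 0.909 on A and B of 5wk. It rose by 5.13 (SE 0.64, adjusted p = 0.0115). Mycl, a MYC family transcription factor, stood at 0.0996, 0.0883 and 0.0976 at 4wk and at 1.14 and 1.49 at 5wk, a rise of 3.78 (SE 0.24, adjusted p = 0.000108). In both genes the 5wk arrays lay more than 10-fold above every 4wk array, and the 3 arrays of 4wk lay close together for Mycl and less so for Csn1s2a. Csn2, the gene of beta-casein, went from 0.140, 0.0987 and 0.134 to 1.47 and 1.29 (3.48, SE 0.63, adjusted p = 0.0382). Crabp2, a carrier of retinoic acid inside cells, went from 0.251, 0.110 and 0.150 to 1.72 and 1.66 (3.40, SE 0.44, adjusted p = 0.0115). The 5wk arrays of Crabp2 were nearly equal. On these probe sets the calls of Csn1s2a and Mycl held whichever of the 14 arrays was left out, that of Crabp2 was lost without 4wk B, and that of Csn2 held without 3 of the 14 in turn and was lost without any of the other 11. The undivided signal level, counted in the smallest steps in which an array's values move, could be recovered for 24 of the 128 called probe sets. In 9 rises all 4wk arrays were under the 200 steps of the filter, in 10 falls all 5wk arrays, and in 3 rises the arrays of both ages, so these passed the filter through other arrays. The size of a fold against such low signal was not measured, and a log2 value given for one describes the deposited ratios only. For Csn1s2a, Mycl, Csn2 and Crabp2 the level was not recovered.

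**Figure D1:**
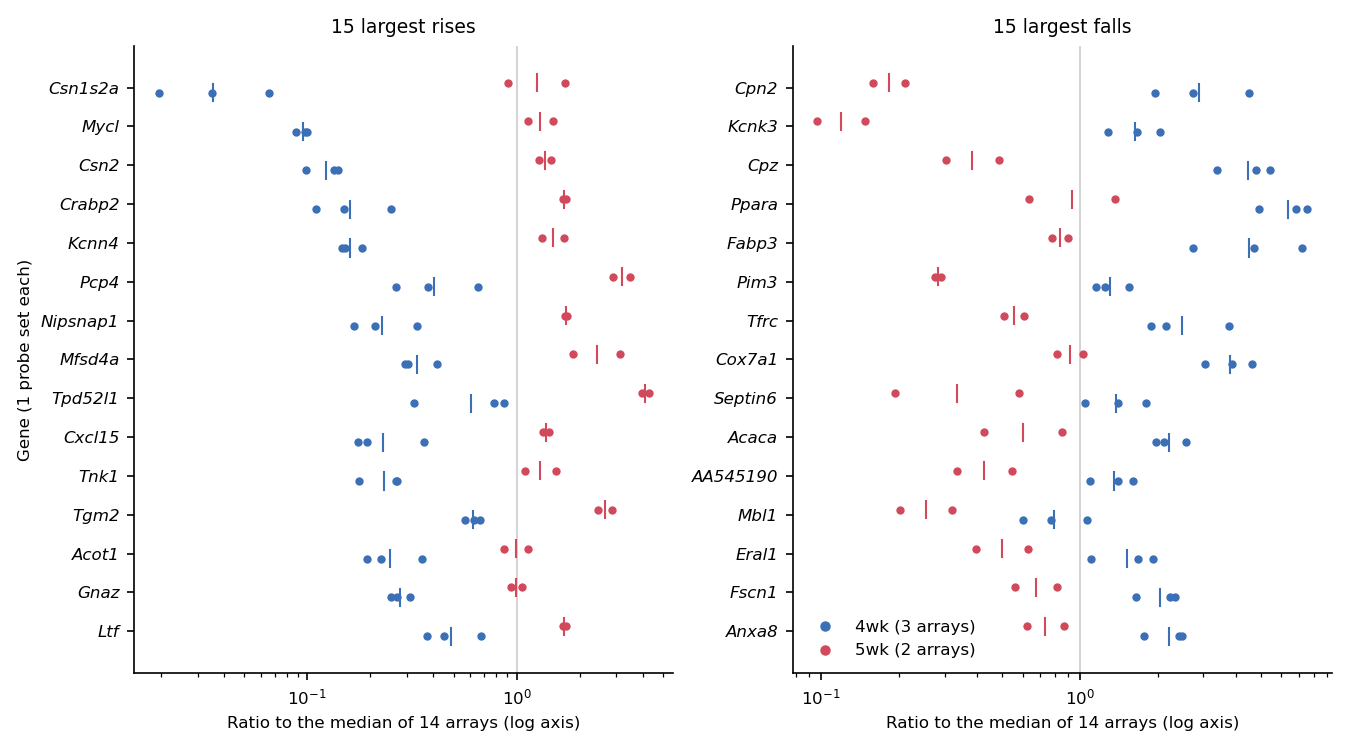
Ratios of the 15 largest rises (left) and 15 largest falls (right) among the probe sets called between 4wk and 5wk, 1 probe set for each gene; each point is 1 array (blue 4wk, 3 arrays; red 5wk, 2 arrays), the short lines are geometric means and the axis is logarithmic. By the rule that chose them no gene has overlapping ages; Csn1s2a shows the widest gap among the rises, from 0.0654 to 0.909, and Kcnk3 and Cpn2 the lowest 5wk ratios among the falls, down to 0.0967 and 0.159.

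The other rises among the 15 largest ran from 3.22 to 1.80. Kcnn4, a potassium channel opened by calcium, rose by 3.22 (SE 0.58; its other probe set stood at 2.38 and did not pass), Pcp4, a small calmodulin-binding protein, by 2.98 (SE 0.58), and Mfsd4a, a membrane protein of the transporter superfamily, by 2.85 (SE 0.32). Tpd52l1, of the D52 family, rose by 2.77 (SE 0.38) and Tnk1, a tyrosine kinase, by 2.48 (SE 0.22) on 1 of its 3 probe sets, the others standing at −0.47 and 0.18 without passing. Tgm2, the tissue transglutaminase that crosslinks proteins, stood at 0.623, 0.672 and 0.569 at 4wk and at 2.46 and 2.85 at 5wk (2.09, SE 0.32). All of its probe sets differed in this direction and 2 of them passed. Gnaz, a G protein subunit, passed with 4wk ratios of 0.252 to 0.311 and 5wk ratios of 0.938 and 1.06, but its levels of 29 to 41 steps at 4wk and 131 and 108 at 5wk were all under the 200 of the filter, and no fold is given. Adjusted p over these 7 genes ran from 0.00195 for Tnk1 to 0.0473 for Pcp4. Nipsnap1, a mitochondrial protein, rose by 2.92 (SE 0.57, adjusted p = 0.0468) on 1 probe set, while its other probe set differed by 0.34 and did not pass. The 4wk levels of Kcnn4, Pcp4, Mfsd4a, Nipsnap1, Tnk1 and Tpd52l1 were 18 to 187 steps, all under 200. Mfsd4a, Tnk1 and Gnaz kept their calls whichever array was left out, and Tpd52l1 lost its call without 5wk B. Tgm2 lost its call without any 1 array of 4wk or 5wk, and Kcnn4 without any 1 of 4wk, 5wk or 7wk. Pcp4 and Nipsnap1 held theirs in 3 and 2 of the 14 fits that leave out 1 array.

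Probe sets of one gene did not always behave alike. Of the 121 genes with a called probe set, 75 had more than 1 tested, and in 60 of these 75 all probe sets differed in the same direction. All probe sets passed in 3 genes. The other probe sets of Mycl differed by 0.05 and 0.24. The mean over its 3 probe sets differed by 1.36 (SE 0.26, adjusted p = 0.05005) and did not pass. Csn1s2a had probe sets at 5.13, 3.86 and 0.33, and Elf5 at 1.54 and 0.19. Values below for members of gene lists are means over the tested probe sets of a gene, and by this measure 44 genes passed of 10699, 21 higher (0.196%) and 23 lower (0.215%). By any called probe set, 52 genes were higher (0.486%) and 69 lower (0.645%).

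Genes of the luminal epithelium, the inner cell layer of the ducts, stood higher at 5wk almost throughout. Of 47 tested genes of luminal and other epithelial cells, 45 had a log2 difference above 0, against 5327 of 10699 over all genes, with a median of 1.07 against −0.00187. Of the 47, 3 rose by the gene mean (0.196% of all genes) and none fell, and 6 rose by any probe set (0.486%). At an unadjusted p under 0.05, 34 were higher (6.82% of all genes). In 38 of the 47 every 5wk array was above every 4wk array, as in 15.9% of all genes. The mean of the list was −0.86, −0.97 and −0.61 on the 4wk arrays A, B and C, and 0.21 and 0.20 on those of 5wk, so the ages were apart by more than the spread within either.

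The members that rose were an RNA splicing factor, a desmosome protein and a secreted lipocalin. Esrp1, which directs the epithelial pattern of splicing, had ratios of 0.463, 0.336 and 0.434 at 4wk and 1.07 and 1.05 at 5wk (1.37, SE 0.24, adjusted p = 0.0383). Dsp, desmoplakin of the desmosome, went from 0.625, 0.565 and 0.743 to 1.38 and 1.38 (1.11, SE 0.21, adjusted p = 0.0482). Lcn2, lipocalin of epithelia and neutrophils, rose by 1.24 (SE 0.22, adjusted p = 0.0394). In each the 5wk arrays lay close together and stood about 2-fold above 4wk. By 1 probe set each, Spint1, an inhibitor of membrane serine proteases (1.45, SE 0.28), Grhl2, a transcription factor of epithelial identity (levels under 200 steps at both ages, so no fold is given), and Elf5, which drives luminal and alveolar cell fate (1.54, SE 0.23), passed too. The defining luminal markers had differences of similar size that did not pass by the gene mean: Krt8 at 1.19 (SE 0.38), Krt18 at 1.17 (SE 0.26), the adhesion molecules Epcam at 1.29 (SE 0.30) and Cdh1 at 1.22 (SE 0.24), and Elf5 at 0.86 (SE 0.32). Their adjusted p ran from 0.05005 to 0.229. The largest differences on the list belonged to the tight junction gene Cldn8 (3.25) and to Mal2 of apical transport (2.72), neither of which passed. The calls of Esrp1, Dsp and Lcn2 held in 4, 3 and 7 of the 14 fits that leave out 1 array and were lost in the rest, among them those without 4wk A, 4wk B, 5wk A or 5wk B.

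The list of basal genes had a smaller median difference than the luminal list. Of 30 tested basal and myoepithelial genes none rose or fell, 22 were above 0 and the median was 0.32. In 13 of the 30 all 5wk arrays were above all 4wk arrays and in 2 they were below, where 15.9% and 17.3% of all genes did so. Krt14, the keratin of basal cells, had ratios of 0.610, 0.656 and 0.640 at 4wk and 1.29 and 1.12 at 5wk, a difference of 0.92 (SE 0.23, adjusted p = 0.0900). Its ages did not overlap, yet the test was not passed. The basal keratin Krt5 differed by 0.26 (SE 0.32), Trp63, the transcription factor of basal cells, by −0.08 (SE 0.45), and the smooth muscle proteins Cnn1 and Acta2 by 1.32 (SE 0.33) and 0.76 (SE 0.22). Whether the luminal and basal lists differ from each other was not tested.

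Milk protein genes were among those that rose, in mice that were untreated and of pubertal age. Of 28 tested genes of milk proteins and secretion, 4 rose by the gene mean (Csn1s2a, Ltf, Mfge8 and Lcn2), against 0.196% of all genes. By any probe set 7 rose, against 0.486%, none fell, and the median was 0.89. Of the 28, 19 lay above 0, against 5327 of 10699 over all genes. In 14 all 5wk arrays were above all 4wk arrays, as in 15.9% of all genes, and in 1 all were below (17.3%). The median was 0.34 to 1.07 under other processing and 0.55 to 1.02 with 1 array left out. Ltf, the iron-binding lactoferrin of milk, had ratios of 0.375, 0.449 and 0.673 at 4wk and 1.72 and 1.66 at 5wk (1.80, SE 0.30, adjusted p = 0.0353). Mfge8, a glycoprotein of the milk fat globule, went from 0.510, 0.469 and 0.589 to 1.11 and 1.18 (1.14, SE 0.18, adjusted p = 0.0211). Both genes lost their call without 4wk A, 4wk B, 5wk A or 5wk B (Ltf also without 3wk C or 7wk A). The call of the Csn1s2a gene mean was lost in 8 of the 14 fits that leave out 1 array, among them those without any 1 array of 4wk or 5wk. By the mean of its probe sets Csn2 stood at 2.86 (SE 0.61, adjusted p = 0.0549), and the caseins Csn1s1 at 2.35 and Csn1s2b at 1.74 did not pass either. Wap, the whey acidic protein of lactation, had ratios of 0.774, 0.645 and 1.07 at 4wk and of 1.36 and 0.649 at 5wk, so the ages overlapped (0.21, SE 0.31, adjusted p = 0.809). At the other end of the list Glycam1, a mucin-like glycoprotein of milk and of lymph node vessels, had a difference of −3.64 that did not pass.

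**Figure D2:**
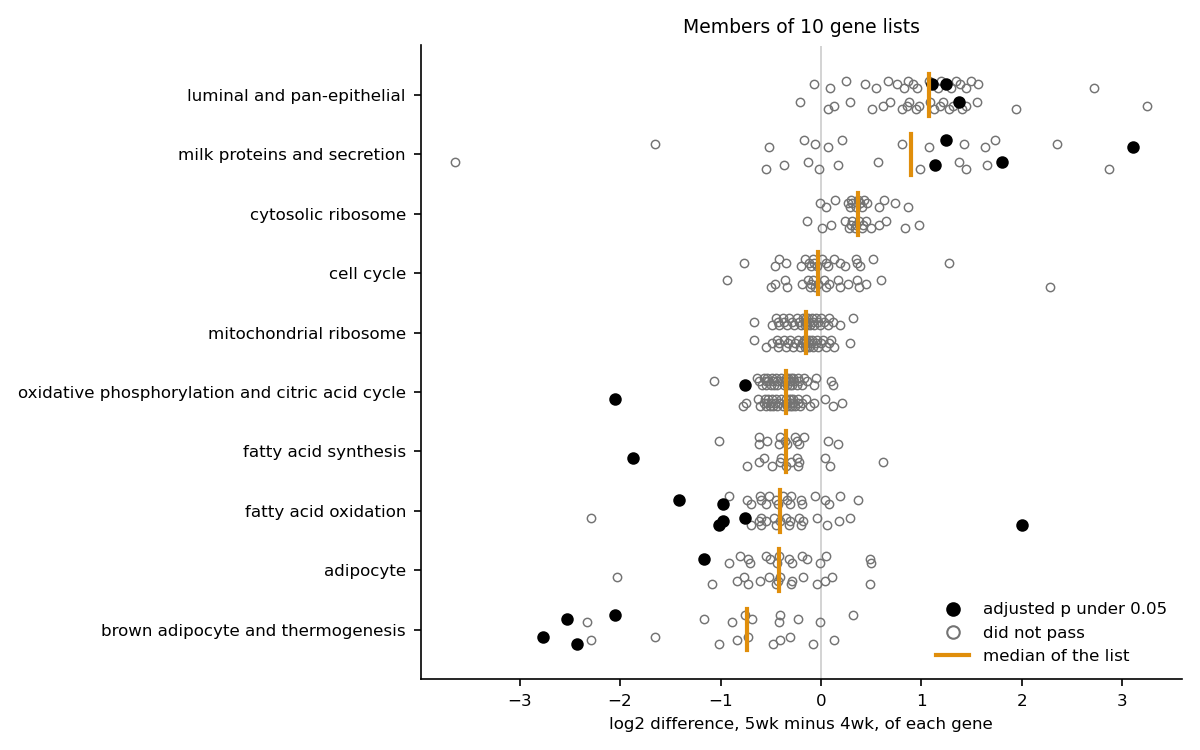
log2 difference between 5wk and 4wk of every tested gene of 10 lists (mean over its probe sets); filled points had an adjusted p under 0.05, open ones did not, and orange bars are list medians. Luminal and milk genes lie mostly right of 0 (medians 1.07 and 0.89), genes of brown fat, fatty acid oxidation and oxidative phosphorylation mostly left of it (medians −0.74, −0.41 and −0.35), and cell cycle genes around it (median −0.03).

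Casein genes are known targets of the STAT transcription factors that act below the prolactin receptor, and many genes of oxidative metabolism are known targets of the oestrogen-related receptors, so the 250 bases before the start of each called gene were searched for the letters TTCNNNGAA, which read the same on both strands, and AAGGTCA, on either strand, which contains the half-site shared by many nuclear receptors. Promoters were taken from RefSeq (GRCm38.p6), which matched 8579 of the 10699 genes tested, 39 of the 52 with a probe set that rose and 55 of the 69 with one that fell. TTCNNNGAA was in 4 of the 39 (10.3%) and 3 of the 55 (5.45%), against 7.29% of all tested genes. AAGGTCA was in 3 of the 55 (5.45%) and 1 of the 39 (2.56%), against 3.71%. These shares lie near those of all genes. The 4 genes that rose and hold the first pattern are shown with it in capitals, and Gdpd1, a phosphodiesterase gene, holds it at 2 places. All are read 5′ to 3′ on the strand of the gene.
Csn2, chr5:87699485-87699543, minus strand: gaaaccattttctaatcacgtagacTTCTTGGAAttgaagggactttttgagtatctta
Cxcl14, chr13:56296709-56296767, minus strand: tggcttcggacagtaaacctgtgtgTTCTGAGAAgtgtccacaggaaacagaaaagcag
Gdpd1, chr11:87074312-87074370, minus strand: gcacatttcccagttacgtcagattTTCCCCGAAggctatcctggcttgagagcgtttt
Gdpd1, chr11:87074204-87074262, minus strand: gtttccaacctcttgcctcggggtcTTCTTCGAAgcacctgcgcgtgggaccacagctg
Nfkb2, chr19:46304564-46304622, plus strand: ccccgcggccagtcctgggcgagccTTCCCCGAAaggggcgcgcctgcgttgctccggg

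In Csn2 the match lies 93 to 85 bases before the start. The 3 genes that fell and hold AAGGTCA carry it on the opposite strand, so that it reads TGACCTT here.
Cpn2, chr16:30267594-30267650, minus strand: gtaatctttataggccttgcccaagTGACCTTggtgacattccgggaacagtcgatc
Foxk2, chr11:121259745-121259801, plus strand: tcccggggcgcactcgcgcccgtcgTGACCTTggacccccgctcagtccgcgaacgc
Pim3, chr15:88861998-88862054, plus strand: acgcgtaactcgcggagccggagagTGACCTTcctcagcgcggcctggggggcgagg

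Cpn2 is the regulatory subunit of a plasma carboxypeptidase, Foxk2 a forkhead transcription factor and Pim3 a serine kinase. A match of letters shows no binding.

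Receptors of the ovarian hormones did not pass. Esr1, the oestrogen receptor, had ratios of 0.649, 1.16 and 0.461 at 4wk and 1.05 and 1.31 at 5wk (0.74, SE 0.76, 95% interval −0.93 to 2.40). Pgr, the progesterone receptor, had 1.08, 0.986 and 0.272 against 0.641 and 1.24 (0.43, SE 0.56, 95% interval −0.79 to 1.65). The ages overlapped in both receptors, and intervals this wide hold changes of more than 2-fold. Of 28 tested genes of oestrogen, progesterone and prolactin signalling, 1 rose by the gene mean (0.196% of all genes) and 3 by any probe set (0.486%). None fell, and the median was 0.17. The member that rose was Stc2, a secreted glycoprotein whose gene responds to oestrogen, with 0.314, 0.410 and 0.437 at 4wk and 0.967 and 1.03 at 5wk (1.38, SE 0.19, adjusted p = 0.0129). Both of its probe sets passed, and the call of the gene mean was lost without 5wk A or without 5wk B. Id2, a helix-loop-helix inhibitor needed for alveolar growth, rose by 1.38 (SE 0.27, adjusted p = 0.0478) on 1 probe set, and Wnt4, a signal induced by progesterone, stood at 2.62 without passing. Prlr, the prolactin receptor, was not analysed here.

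The largest falls included genes of brown fat and fatty acid use. Ppara, the nuclear receptor that switches on fatty acid oxidation, had ratios of 7.57, 6.85 and 4.90 on the 4wk arrays A, B and C, against 0.634 and 1.37 at 5wk (−2.77, SE 0.37, adjusted p = 0.0118). Fabp3, a fatty acid carrier of muscle and brown fat, went from 2.73, 7.18 and 4.69 to 0.781 and 0.902 (−2.43, SE 0.39, adjusted p = 0.0212). Cox7a1, the cytochrome oxidase subunit of muscle and brown fat, went from 3.05, 4.60 and 3.87 to 0.815 and 1.03 (−2.05, SE 0.30, adjusted p = 0.0179). In all of them the lowest 4wk array was more than 2-fold above the highest 5wk array. Kcnk3, a potassium leak channel found in brown fat, went from 2.04, 1.28 and 1.66 to 0.148 and 0.0967 on its most changed probe set (−3.77, SE 0.46, adjusted p = 0.0111) and fell by 2.53 (SE 0.36, adjusted p = 0.0137) over its 3 probe sets. The most changed probe set of Kcnk3 kept its call whichever array was left out, while its gene mean lost it without 4wk B, 5wk A or 5wk B. On the probe sets given, Ppara lost its call without 4wk B, Cox7a1 without 4wk B, 5wk A or 5wk B, and Fabp3 without any of these 3 or 4wk C.

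Other large falls were in genes of varied function. Cpn2 had ratios of 2.74, 4.52 and 1.96 at 4wk and of 0.211 and 0.159 at 5wk (−3.98, SE 0.64, adjusted p = 0.0221). Cpz, a secreted carboxypeptidase that binds Wnt proteins, had 3.38, 4.80 and 5.40 against 0.303 and 0.487 (−3.53, SE 0.68, adjusted p = 0.0467). Cpz is itself a carboxypeptidase, while Cpn2 is the regulatory subunit of one. Their 5wk levels were 17 and 12 steps for Cpn2 and 24 and 36 for Cpz, far under the 200 of the filter, so the size of both falls was not measured. Cpn2 lost its call without 4wk A, 4wk B, 5wk A or 5wk B, and Cpz held it in 3 of the 14 fits that leave out 1 array. Tfrc, the transferrin receptor for iron uptake, fell by 2.16 (SE 0.34) on 1 of its 3 probe sets, the others standing at −0.01 and −0.53. Septin6, of the filament-forming septins, fell by 2.04 (SE 0.40) on 1 of its 5 probe sets, the others standing at −0.47 to 0.42. Fscn1, the actin bundler fascin, fell by 1.60 (SE 0.31) on 1 of its 4, the others standing at −2.42 to −0.10. Anxa8, an annexin, fell by 1.58 (SE 0.28), and Mbl1, a mannose-binding lectin of serum, by 1.64 (SE 0.28). Eral1, a GTPase that helps to assemble the mitochondrial ribosome, fell by 1.61 (SE 0.26) on 1 of its 5 probe sets, the others standing at −0.72 to 0.04, and AA545190, a gene known by a sequence tag, by 1.66 (SE 0.32). The 5wk levels of Septin6, Mbl1, Eral1, AA545190 and Pim3, and of Ppara above, were 31 to 191 steps, all under 200. Tfrc and Eral1 each held their call in 11 of the 14 fits that leave out 1 array, Mbl1 in 8, Anxa8 in 5, AA545190 in 3, and Septin6 and Fscn1 in 2, and all of them lost it without 4wk B and also without 5wk B.

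Of 24 tested genes of brown fat and heat production, 4 fell by the gene mean (Ppara, Kcnk3, Fabp3 and Cox7a1), against 0.215% of all genes, and none rose. Of the 24, 2 lay above 0, and in 17 every 5wk array was below every 4wk array, as in 17.3% of all genes. The median was −0.74. Ucp1, the uncoupling protein that makes heat, had ratios of 2.63, 5.58 and 3.96 at 4wk and of 0.587 and 1.01 at 5wk, a difference of −2.33 (SE 0.64, adjusted p = 0.109) that did not pass although the ages did not overlap. Cidea, a lipid droplet protein of brown fat, stood at −1.65 (SE 0.34, adjusted p = 0.0530). The coactivators Ppargc1a and Ppargc1b at −0.68 and −0.88 did not pass, and Dio2, the enzyme that activates thyroid hormone, stood at 0.32.

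Enzymes of fatty acid oxidation went the same way as a list. Of 45 tested, 5 fell by the gene mean (0.215% of all genes), 1 rose (0.196%) and 37 lay below 0, with a median of −0.41. In 31 all 5wk arrays were below all 4wk arrays, against 17.3% of all genes. Acaa2, the last enzyme of the mitochondrial spiral, had ratios of 1.49, 1.74 and 1.81 at 4wk and 0.869 and 0.789 at 5wk (−1.01, SE 0.13, adjusted p = 0.0106). Acad9, an acyl-CoA dehydrogenase that also helps to build complex I, went from 1.27, 1.08 and 1.28 to 0.602 and 0.624 (−0.98, SE 0.12, adjusted p = 0.0106). Etfdh, which passes electrons from these dehydrogenases to ubiquinone, went from 1.23, 1.30 and 1.43 to 0.654 and 0.692 (−0.97, SE 0.17, adjusted p = 0.0363). The 3 genes were each about 2-fold lower, with arrays of an age close together. Acaa2 lost its call without 5wk B, Acad9 without 5wk A or B, and Etfdh without any array of 4wk or 5wk and without 7wk A or B. Ehhadh, of the peroxisomal pathway, fell by 1.41, and Acadvl, the dehydrogenase of very long chains, by 0.76. The member that rose was Acot1, a thioesterase that releases fatty acids from coenzyme A in the cytosol, with 0.226, 0.192 and 0.353 at 4wk and 0.869 and 1.13 at 5wk (1.997, SE 0.27, adjusted p = 0.0122), a call lost without 5wk A or B. Cpt1a, the entry gate of fatty acids into mitochondria in liver and many other tissues, stood at 0.36 and did not pass.

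Genes of the respiratory chain and the citric acid cycle lay mostly below 0. Of 83 tested genes, 2 fell by the gene mean (0.215% of all genes), 8 by any probe set (0.645%) and none rose. Of the 83, 5 lay above 0 and 42 were lower at an unadjusted p under 0.05 (8.00% of all genes). In 61 of the 83 all 5wk arrays were below all 4wk arrays, and none had them all above, against 17.3% and 15.9% of all genes. The median was −0.35. By part of the pathway, 29 of 30 genes of complex I, all 4 of complex II, all 9 of complex III, 9 of 10 of complex IV and 11 of 14 of complex V lay below 0, with medians of −0.32, −0.52, −0.44, −0.30 and −0.22. All 15 genes of the citric acid cycle and pyruvate dehydrogenase lay below 0, with a median of −0.54. Besides Cox7a1, the member that fell was Ogdh, the oxoglutarate dehydrogenase of the cycle, from 1.46, 1.48 and 1.61 to 0.926 and 0.866 (−0.76, SE 0.12, adjusted p = 0.0306), a call that held in 7 of the 14 fits that leave out 1 array and in none of those without an array of 4wk or 5wk.

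Single probe sets added further enzymes of this pathway. Cs, citrate synthase, fell by 0.82 (SE 0.13), Dlst by 0.90 (SE 0.15) and Sucla2 by 0.77 (SE 0.15), all of the citric acid cycle, as did Idh3a by 0.69 (SE 0.13). Ndufb6 of complex I fell by 0.77 (SE 0.12) and Cox5a of complex IV by 0.73 (SE 0.14). Immt, which shapes the folds of the inner mitochondrial membrane, fell on 3 probe sets, by 0.98, 0.72 and 0.68. Adjusted p for these 9 probe sets ran from 0.0189 to 0.0473. The other tested probe sets of Cs (−0.57 and −0.53), Dlst (−0.09) and Cox5a (−0.74 and −0.18) did not pass. Proteins of the mitochondrial ribosome, which were listed apart, did not pass in any of 72 genes, 13 of which lay above 0, with a median of −0.15.

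Most genes of the adipocyte list, which was not confined to white fat, and of fatty acid synthesis lay below 0 too. The best known fat cell markers did not pass. Of 34 tested adipocyte genes 1 fell (0.215% of all genes) and 6 lay above 0, with a median of −0.42. In 24 all 5wk arrays were below all 4wk arrays, against 17.3% of all genes. The gene that fell was Lgals12, a galectin of lipid droplets, with 1.55, 1.57 and 1.37 at 4wk and 0.699 and 0.634 at 5wk (−1.17, SE 0.14, adjusted p = 0.0106). Adipoq, the hormone adiponectin, had ratios of 1.15, 1.06 and 0.979 at 4wk and 1.03 and 1.02 at 5wk (−0.04, SE 0.11, 95% interval −0.29 to 0.21). The ages overlapped for Adipoq, and its interval was the narrowest among the fixed marker genes named here. Leptin, Lep, stood at −0.01 (SE 0.27), Fabp4, the fatty acid carrier of fat cells, at −0.44 (SE 0.17), and Pparg, their master regulator, at −0.83 without passing. Of 29 genes of fatty acid synthesis 1 fell by the gene mean (0.215% of all genes) and 2 by any probe set (0.645%). Of the 29, 5 lay above 0, with a median of −0.35. Acaca, the carboxylase of the first step, had 1.97, 2.10 and 2.57 at 4wk and 0.425 and 0.855 at 5wk (−1.87, SE 0.29, adjusted p = 0.0206). The call of Lgals12 was lost without 5wk B and that of Acaca without 4wk B, 4wk C or 5wk A. Gpam, which begins the making of triglyceride, fell by 1.16 (SE 0.16, adjusted p = 0.0121) on 1 probe set, the other standing at 0.07, and Fasn, fatty acid synthase, stood at −0.21. In 20 genes of cholesterol synthesis none passed and 6 lay above 0 (median −0.21).

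**Figure D3:**
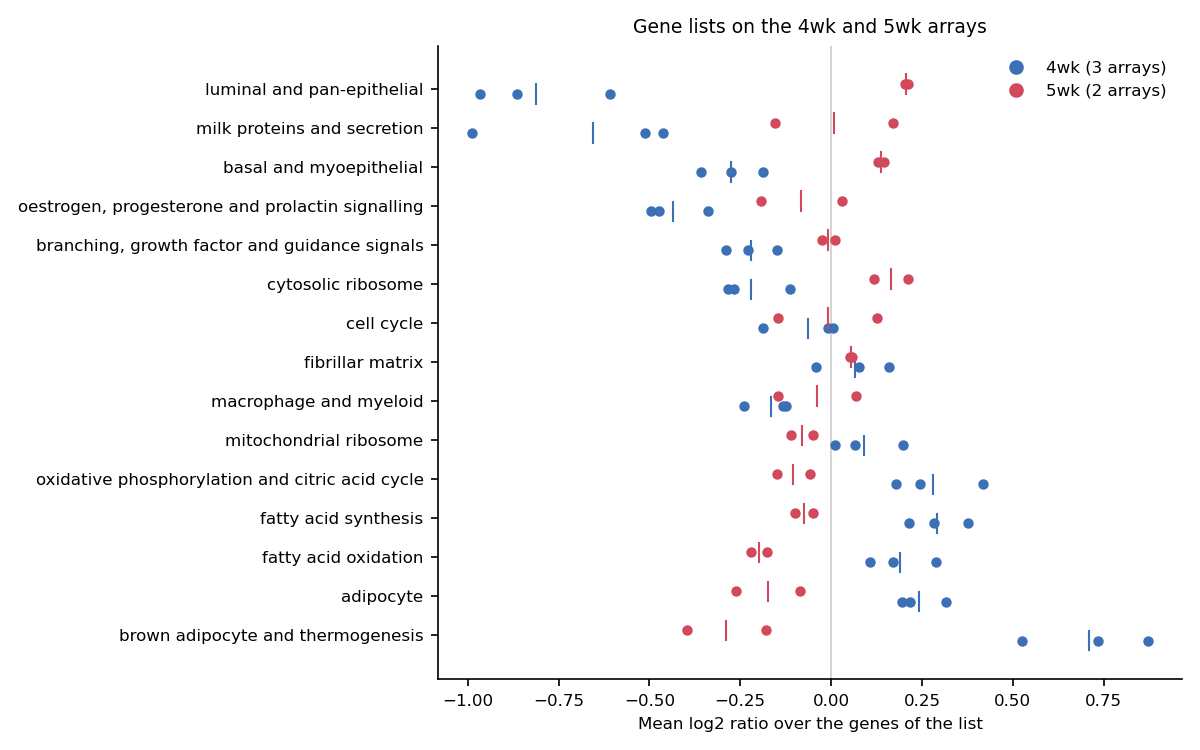
Mean log2 ratio over the genes of 15 lists on each array (blue 4wk, 3 arrays; red 5wk, 2 arrays; short lines are the means over arrays). The ages are apart in the luminal list (4wk at most −0.61, 5wk at least 0.20) and in the brown adipocyte list (4wk at least 0.53, 5wk at most −0.18) and overlap in the cell cycle, fibrillar matrix and macrophage lists.

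Single growth factor genes passed in both directions. Of 82 tested genes of branching, growth factor and guidance signals none passed by the gene mean, and the median was 0.17. In 29 all 5wk arrays were above the 4wk arrays and in 10 all below, against 15.9% and 17.3% of all genes. At an unadjusted p under 0.05 by limma, 17 were higher and 6 lower, against 6.82% and 8.00% of all genes. The list mean was −0.23, −0.29 and −0.15 on the 4wk arrays A, B and C, and 0.01 and −0.03 on those of 5wk. Igf1, the insulin-like growth factor, fell by 0.95 (SE 0.14, adjusted p = 0.0192) on 1 probe set, as did Grb10, an adaptor that dampens its receptor, by 1.32 (SE 0.26, adjusted p = 0.0478). By the gene mean these stood at −0.66 and −0.68. Vegfa, the main growth factor of blood vessels, fell by 1.14 (SE 0.18, adjusted p = 0.0242) on 1 probe set. Vegfc, the growth factor of lymph vessels, went the other way, from 0.347, 0.422 and 0.515 at 4wk to 1.23 and 1.39 at 5wk (adjusted p = 0.0179 by limma). Its levels were 46 to 66 steps at 4wk and 169 and 179 at 5wk, all under the 200 of the filter, and no fold is given. The 3wk ratios of Vegfc averaged 0.957 ± 0.0645 (SD, n = 3), above 4wk. Its call was lost without 4wk A, 4wk B, 5wk A or 5wk B. Nr3c1, the glucocorticoid receptor, fell by 0.87 (SE 0.16) on 1 probe set, and Trps1, a GATA-type repressor of luminal cells, rose by 1.53 (SE 0.28).

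Among secreted immune signals Cxcl15, a chemokine of epithelia, rose from 0.363, 0.192 and 0.175 to 1.34 and 1.43 (2.59, SE 0.33, adjusted p = 0.0106). It was the 1 call in 34 tested chemokine and cytokine genes by the gene mean (0.196% of all genes rose). This call was lost without 5wk A or B. Cxcl14 rose by 1.71 (SE 0.29, adjusted p = 0.0292) on 1 probe set. Il17b had the largest difference of that list, at 4.12, and did not pass. In 43 macrophage and myeloid genes, 31 lymphocyte genes and 38 interferon response genes none passed by the gene mean, with medians of 0.15, −0.11 and 0.21.

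Genes of dividing cells did not pass in either direction. None of 45 tested cell cycle genes was called, and the median was −0.03, or 0.28 with the hybridisation spikes as a covariate. Mki67, a marker of cycling cells, had ratios of 1.23, 0.783 and 1.10 at 4wk and 1.06 and 1.09 at 5wk (0.08, SE 0.51, 95% interval −1.04 to 1.19), so a change of 2-fold either way was within its interval. In 44 genes of the fibrillar matrix and 28 of the basement membrane none passed by the gene mean either, with medians of −0.07 and −0.11. Proteins of the cytosolic ribosome differed by small amounts in 1 direction: none of 35 passed and 33 lay above 0, with a median of 0.37. In 28 all 5wk arrays were above all 4wk arrays, against 15.9% of all genes.

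The week from 4wk to 5wk was then set beside the other weeks. Between 3wk and 4wk 26 probe sets passed (0.154%), between 5wk and 6wk 48 (0.283%) and between 6wk and 7wk 162 (0.956%). Which of the last count and the 128 was larger turned with the processing. The week from 4wk to 5wk had more with quantile normalization (332 against 164), with the actin ratio as a covariate (17 against 1), and without 3wk A (184 against 162), 6wk A (120 against 56), 6wk B (102 against 59), 7wk A (69 against 45), 7wk B (62 against 38) or 7wk C (67 against 56). With arrays centred (159 against 157) or the filter at 300 steps (196 against 195) they were nearly equal. The week from 6wk to 7wk had more in all other settings run for both weeks. It had 125 against 31 with the replicate block, 30 against 8 with a trend and robust moderation, and 88 against 65 with no filter. Without 4wk A, B or C it had 109, 114 and 117 against 45, 12 and 57, and without 6wk C 250 against 126. Neighbouring weeks share the arrays of an age, and counts of calls also move with the number of arrays. The change from 4wk to 5wk differed from the change of the week before in 1 probe set (0.00590%), that of Mycl, by 4.01 (SE 0.39, adjusted p = 0.00891). It differed from the change of the week after in 3 (0.0177%): Mycl by 3.75 (SE 0.44), Ppp1r8, a nuclear inhibitor of protein phosphatase, by −2.66 (SE 0.29), and Pim3 by −3.79 (SE 0.45), each with an adjusted p of 0.0211. For the other called probe sets these data do not show that the change belongs to this week more than to its neighbours. Leaving out 1 array gave 0 to 10 probe sets for the week before, with 0 without 4wk B and without 4wk C and 10 without 6wk C. It gave 0 to 28 for the week after, with 0 without 4wk A, 4wk B, 4wk C or 7wk B, and 27 and 28 without 5wk A and B.

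Mycl was low, at 0.115 ± 0.0290 (SD, n = 3) at 3wk and 0.0952 ± 0.00603 (n = 3) at 4wk, and then stood at 1.31 ± 0.252 (n = 2) at 5wk, 1.35 ± 0.320 (n = 3) at 6wk and 1.08 ± 0.0589 (n = 3) at 7wk. It thus made its whole step within 1 week, on 1 of its 3 probe sets. Pim3 fell for a single age: 0.932 ± 0.228 at 3wk and 1.32 ± 0.202 at 4wk were followed by 0.283 ± 0.00990 (n = 2) at 5wk, 0.868 ± 0.256 at 6wk and 1.05 ± 0.132 at 7wk. Ppp1r8 had the same form, with 0.456 ± 0.0304 (n = 2) at 5wk between 1.10 ± 0.101 at 4wk and 1.21 ± 0.221 at 6wk (n = 3 each). The dip of both genes rests on the 2 arrays of 5wk. The other probe sets of Pim3 differed by −0.36 and −0.54 between 4wk and 5wk without passing, and the other probe set of Ppp1r8 by 0.02 (adjusted p = 0.966). The 5wk levels behind the dip were 51 and 50 steps for Pim3 and 119 and 122 for Ppp1r8, under the 200 of the filter. Kcnk3 had a mean of 0.122 at 5wk and 0.0564 at 6wk and was back at 0.952 ± 0.339 at 7wk.

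**Figure D4:**
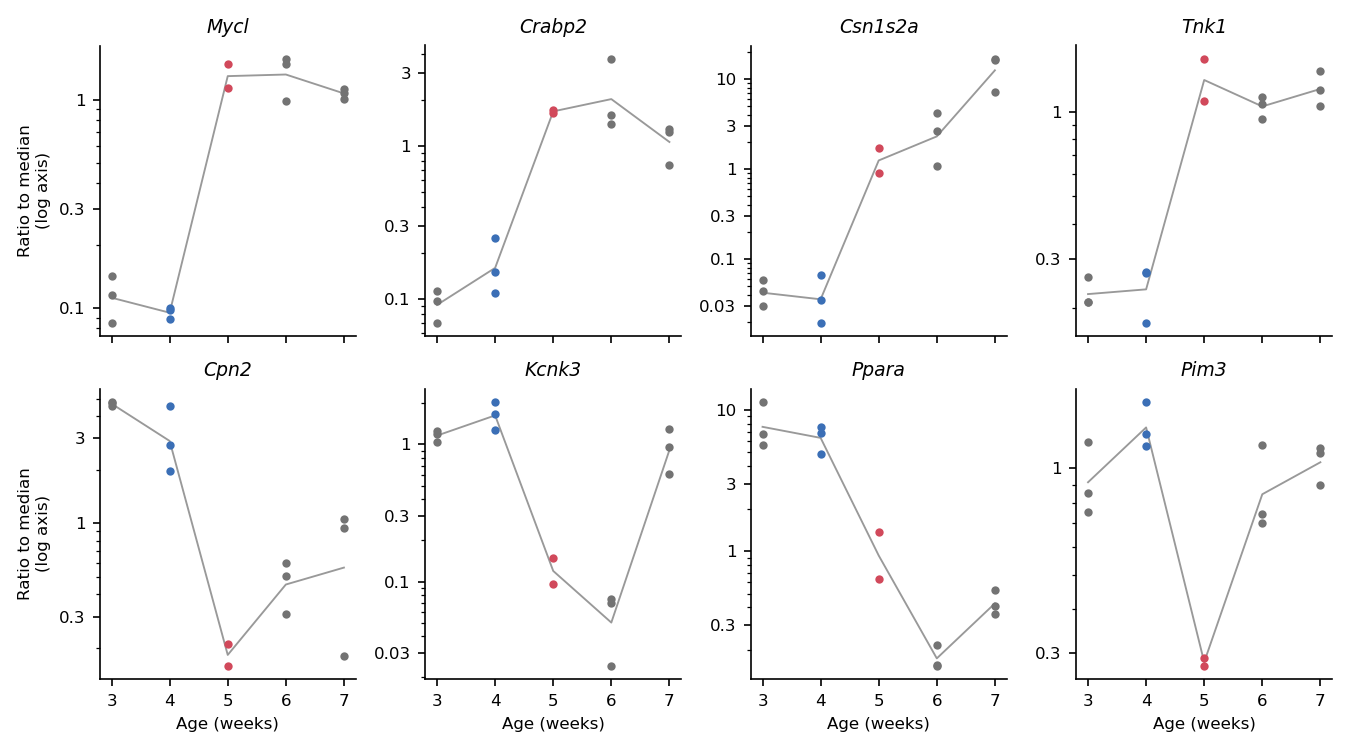
Ratios of 8 genes on all 14 arrays against age (1 probe set each; blue 4wk, red 5wk, grey the other ages; the line joins geometric means; each panel has its own logarithmic axis). Mycl, Crabp2 and Tnk1 step up between 4wk and 5wk and stay up, Csn1s2a goes on to a mean of 13.5 at 7wk, Ppara stays below 1 at 6wk and 7wk, and Kcnk3 and Pim3 are back near 1 at 7wk.

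The arrays of 3wk, 6wk and 7wk, which take no part in the difference between 4wk and 5wk, gave a second measure. In the mean of 6wk and 7wk minus 3wk, 14.1% of probe sets passed. Of the 54 probe sets that rose between 4wk and 5wk, 51 (94.4%) had the same sign there and 46 (85.2%) passed with the same sign, with a median of 1.85. Of the 74 that fell, 64 (86.5%) had the same sign and 46 (62.2%) passed with it, with a median of −0.60. Over all 16938 probe sets 61.1% had the same sign and 11.7% passed with it. Of the 128, 1 passed with the other sign, that of Slc38a10, an amino acid transporter (−0.72, SE 0.14, between 4wk and 5wk, and 0.58 in the later comparison). Both comparisons use 1 estimate of the spread for each probe set, so a probe set with a small spread passes more easily in both. Of the 54 rises, 3 (Gnaz, Grhl2 and Vegfc) had all 4wk and 5wk levels under the minimum of the filter. They entered through arrays of 3wk, 6wk or 7wk, so for them the second measure was not independent of the filter. In 9 other rises all 4wk levels were under it, and in 10 falls all 5wk levels. The shares without these probe sets were not computed.

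**Figure D5:**
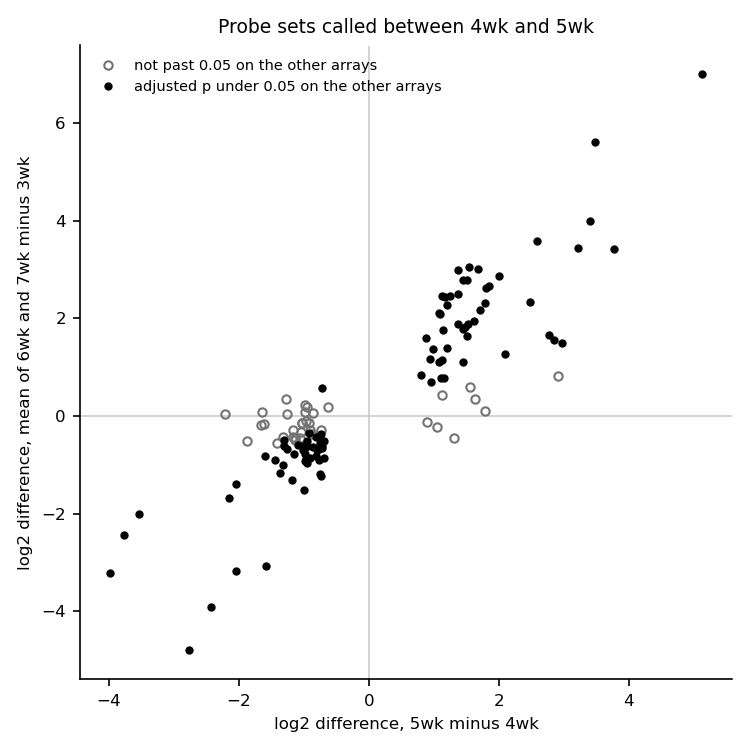
The 128 probe sets called between 4wk and 5wk: their log2 difference in that week (horizontal) against the mean of 6wk and 7wk minus 3wk on other arrays (vertical); filled points had an adjusted p under 0.05 in the second comparison. Most points lie in the lower left and upper right fields of the plot (64 and 51), and Csn1s2a is at the upper right with 5.13 and 7.00.

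Signs of RNA handling moved between the ages as well. The 5′ over 3′ signal of the actin controls, as log2, was 0.28, 0.23 and 0.10 on the 4wk arrays A, B and C, against −0.16 and −0.26 at 5wk, and that of pyruvate carboxylase was 0.08, 0.44 and 0.46 against −1.25 and −0.66. Both were lower at 5wk without overlap, while those of Gapdh and of the transferrin receptor overlapped. With the actin ratio as a covariate 17 probe sets passed in place of 128. List medians were then 1.14 for luminal, 1.07 for milk, −0.86 for brown fat, −0.50 for fatty acid oxidation and −0.57 for oxidative phosphorylation genes. With the hybridisation spikes as a covariate they were 1.12, 0.80, −0.81, −0.43 and −0.31, in the same order. These medians cannot decide the part of RNA handling, since the actin ratio did not overlap between the 2 ages. Of other cell types, the markers of macrophages (4 of 4 tested), lymph node T and B cells (6 of 7), skeletal muscle (4 of 6), skin (4 of 4) and nerve sheath (2 of 4) had means that overlapped between the ages. The mean of the endothelial markers (4 of 4) was 0.13 to 0.65 at 4wk and −0.13 to −0.02 at 5wk, and that of the red cell markers (2 of 4) 0.29 to 0.50 at 4wk against at most 0.26 at 5wk. Immediate early and stress genes had a median of 0.21 over 46 genes. On all 5wk arrays 17 were higher and 4 lower, against 15.9% and 17.3% of all genes. The 1 gene with a called probe set was Hspa1b (1.504, SE 0.29), a heat shock gene, where 0.486% of all genes rose by any probe set. The part of these in the results was not tested.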

How the data were processed

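The authors deposited 1 table of linear ratios, in which 98.48% of 22690 probe sets have a median of 1 (within 0.001) over the 14 arrays, so these had been divided by their own median. No source used here names the software that made the signals. For 337 probe sets with a median below 0.98 a share of 0.923 (7wk A) to 1 of the ratios on an array were whole steps of 1 size, within the rounding of the deposited values and a relative 2e-05, which gave back the undivided level for 9319 probe sets (41.07%). The 64 control probe sets and 4099 whose level was under 200 steps on all arrays or all but 1 were left out, and 18527 were tested. The recovery was tested on simulated data, where all low and none of the other probe sets were left out. Detection calls were not used here, and the number of arrays limits the precision.

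The deposited ratios were turned into log2 values, without an offset or further normalization, since array medians ran from 0.953 to 1.017. Age was the factor of a linear model over the 14 arrays (limma 3.58.1, R 4.3.3, lmFit and eBayes, 9 residual degrees of freedom), since 5wk has 2 arrays. Tests are two-sided, with Benjamini-Hochberg adjustment over the 18527 and a threshold of 0.05. In simulated data with changes between 4wk and 5wk, 32%, 86%, 92% and 98% of changes of 1, 2, 3 and 4 (log2) were recovered. Genes were named through the platform annotation, of which 20364 probe sets matched RefSeq by gene identifier. Other steps used Python 3.11.15, numpy 2.4.6, pandas 2.3.3, numba 0.67.0 and matplotlib 3.10.9.

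The genes named were the 15 largest rises and 15 largest falls among called probe sets without overlap, up to 4 called members with the smallest p of each list described, the 5 called probe sets with the smallest p in each test against a neighbouring week, and Elf5, Mycl, Esr1, Pgr, Prlr, Krt8, Krt14, Csn2, Wap, Mki67, Ppara, Adipoq and Ucp1. Other genes named were chosen after their values were seen. The comparison, the 31 gene lists and the rules were chosen with earlier results of these data known. Lists were described by counts and medians, and no set test was run. Alternatives were the arrays in the fit, the replicate block, 2 normalizations, an offset, 2 level filters, moderation, adjustment, 2 covariates and leaving out each array.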

Additional observations from a re-analysis of the deposited data

Results flagged for a closer look

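The change of Mycl from 4wk to 5wk differed from its change from 3wk to 4wk by 4.01 on the log2 scale (SE 0.39, adjusted p = 0.00891 by limma) and from its change from 5wk to 6wk by 3.75 (SE 0.44, adjusted p = 0.0211). Both 5wk arrays lay above all 4wk and 3wk arrays. The changes of Ppp1r8 and Pim3 from 4wk to 5wk differed from those from 5wk to 6wk by −2.66 (SE 0.29) and −3.79 (SE 0.45), each with an adjusted p of 0.0211, and both genes were lower on the 2 arrays of 5wk than on every array of 4wk and 6wk. The other probe set of Ppp1r8 differed by 0.02 between 4wk and 5wk and those of Pim3 by −0.36 and −0.54, none of which passed. These were the probe sets naming 1 gene whose change in this week differed from that of a neighbouring week.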

How the results depend on the processing

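The direction of the 53 called named values was the same in every setting, of 25, in which a value was tested. Nipsnap1, Tpd52l1, Pim3, AA545190 and Vegfc had no value with the filter at 300 steps. Some genes with 1 probe set, such as Ppara and Ltf, count among the 53 both as a probe set and as a gene mean. The calls of the 53 were not the same: none was called in every setting, 8 were called whichever array was left out, and the median was 11 of 14 arrays. On its called probe set Mycl lost its call in 1 setting (adjusted p = 0.128 with a trend and robust moderation). So did 1 probe set each of Mfsd4a and Lgals12, with only the 4wk and 5wk arrays. The gene mean of Lgals12 lost its call there, with the actin ratio as a covariate and without 5wk B. That of Mycl did not pass in the main fit. The cause was not tested for any of these. The medians of the luminal, milk, basal, brown adipocyte, adipocyte, fatty acid and oxidative phosphorylation lists kept their sign in all 25 settings, while those of the cell cycle and lymphocyte lists took the other sign in 7 and 4. Values not far from 0 changed sign: Mki67 stood at −0.047 with the actin ratio as a covariate. Leaving out 1 array gave −0.11 (without 4wk B) to 0.21 for Mki67, −0.10 to 0.014 (without 4wk A) for Adipoq, −0.21 (without 4wk C; −0.045 without 5wk B) to 0.91 for Pgr and −0.32 (without 5wk A) to 0.75 for Wap.

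The counts between 4wk and 5wk, of 128 probe sets (54 higher, 74 lower) and 44 genes, became 2 (2, 0) and 0 with only the 5 arrays of these ages, where fewer arrays set the spread and 2533 had passed unadjusted in the full fit. They were 332 (165, 167) and 253 with quantile normalization, 65 (32, 33) and 29 with no filter on level, 196 (93 higher) and 152 with a level filter at 300 steps, 8 (2, 6) and 7 with a trend and robust moderation, 15 (9, 6) and 17 with the hybridisation spikes as a covariate, and 17 (10, 7) and 13 with the actin ratio as a covariate. The genes were 114 with arrays centred on their median and 120 with an offset of 0.1. With the replicate block they were 31 (15, 16) and 19, of which 28 probe sets were among the 128. The letters do not pair the arrays: deviations of arrays with the same letter correlated at −0.07 to 0.09 over 26 pairs and others at −0.12 to 0.09 over 52. Leaving out 1 array gave 12 to 184 probe sets (7 to 95 higher, 5 to 89 lower) and 12 to 122 genes, 12 probe sets without 4wk B and 184 without 3wk A.

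For 4wk minus 3wk the count of 26 was 8 with the replicate block, 8 with quantile normalization, 15 with the offset, 8 with no filter, 2 with a trend, 7 with the spikes and 14 with the actin ratio, and 0 to 28 without 1 array. For 6wk minus 5wk the count of 48 was 2 with the block, 0 with a trend, 30 with the spikes and 7 with the actin ratio, and 9 to 44 without 1 array. For 7wk minus 6wk the count of 162 was 88 with no filter, 30 with a trend, 17 with the spikes and 1 with the actin ratio, and 38 to 250 without 1 array. The mean of 6wk and 7wk minus 3wk gave 1226 in place of 2392 with the spikes. Against the week before, the count of 1 was 0 with the block, a trend or the spikes, 14 with quantile normalization, 5 with the offset, 8 with the filter at 300 steps, 2 with the actin ratio and 0 to 10 without 1 array. Against the week after, the count of 3 was 6 with quantile normalization, 5 with no filter, 0 with a trend or the spikes, 5 with the actin ratio and 0 to 28 without 1 array. The cause of these differences was not tested. A planned filter at a higher level was not run because such levels could not be recovered, and the one at 300 steps was added after seeing the data.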

Other observations

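Of 1589 tested probe sets that name several genes or none, 11 passed between 4wk and 5wk, 4 of them higher and 7 lower, with log2 differences from −1.74 to 2.98. They are not named here.

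Some called probe sets belong to no group described so far. Gas5, a non-coding host RNA of small nucleolar RNAs, rose by 0.80 (SE 0.13) and Nfkb2, an NF-kappa-B subunit, by 1.05 (SE 0.21). Ano1, a chloride channel opened by calcium, rose by 1.18 (SE 0.23), Slco2a1, a prostaglandin transporter, by 1.13 (SE 0.17), Fxyd3, a regulator of the sodium pump, by 1.13 (SE 0.21), and Aqp9, a channel for glycerol and water, by 1.30 (SE 0.26). Stom, the membrane protein stomatin, fell on 2 probe sets by 1.33 (SE 0.18) and 0.98 (SE 0.18), and Sort1, the sorting receptor sortilin, fell by 0.96 (SE 0.14). Gys1, glycogen synthase of muscle and fat, fell by 1.45 (SE 0.29) and Prkaca, the catalytic subunit of protein kinase A, by 0.93 (SE 0.13). Adjusted p for these 11 probe sets, by limma, ran from 0.0120 to 0.0498. They were chosen after their values were seen. On the 4wk arrays A, B and C the levels were 178, 156 and 155 steps for Nfkb2 and 150, 151 and 74 for Aqp9. All were under the minimum of the filter, so the size of both rises was not measured. The other probe set of Nfkb2 stood at −0.91 and that of Aqp9 at −0.13, opposite in sign to the rises given, and 1 of the 6 of Stom at 0.16. The others of Gas5, Slco2a1, Sort1 and Gys1 had the same sign and did not pass.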
